A study of Mus musculus with 8 samples.

Results

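Genes that make, break down or sense prostaglandins were followed in mouse endometrium, 10 of the 52325 genes in the deposited count table. They are the cyclooxygenase genes Ptgs1 and Ptgs2, the terminal synthase genes Ptges, Ptges2, Ptges3, Ptgis and Ptgds, the degrading enzyme gene Hpgd, and the receptor genes Ptger4 and Ptgfr. They were chosen by function, and by the level of Ptges in this same comparison of genotypes, where it was known to be high in the mutant. The difference between genotypes is therefore given for these 10 genes as a description. Which of them met the thresholds of the study is stated beside the share of all genes, and nothing is read from it. All 10 passed the filter on low counts.

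Endometrium was cut by laser capture from frozen uterine sections of 4 WT female mice and 4 Thra1PV/+ female mice, all of them synchronised at metestrus, and each library came from 1 mouse. Thra1PV/+ mice are heterozygous for the PV mutation of Thra, a frame-shift near the C-terminus of the thyroid hormone receptor TRα1 that makes it a dominant negative receptor, and they carry it in the germ line rather than in 1 tissue. The ages of these 8 mice are not given in the sources used here. The libraries held between 48791602 and 59818887 counts, and the correlation of log2 counts between libraries of a genotype ran from 0.901 to 0.974.

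Prostaglandins are short-lived lipid signals made from arachidonic acid, which phospholipases release from membranes. A cyclooxygenase turns it into the shared intermediate PGH2, and a terminal synthase then makes PGE2, PGD2, PGI2 or PGF2α, each with its own receptors, before 15-hydroxyprostaglandin dehydrogenase inactivates PGE2 and PGF2α. In the uterus these lipids act in implantation, decidualisation, contraction and the inflammatory response, and PGE2 and PGF2α often have opposite effects on the tissue.

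Of these genes 5 lie on mouse chromosome 2, and Ptgds, Ptges, Ptges2 and Ptgs1 sit within 10.79 Mb of each other there (GRCm38, GENCODE M21 annotation). Ptges covers chr2:30889471-30929863 on the minus strand, and its principal transcript has 3 exons. The processed pseudogene Gm13400 lies within this span on the same strand (380 bases, chr2:30923978-30924357). It is upstream of the RefSeq start used below. Strand alone does not separate such genes, and whether any reads were shared was not tested. Ptger4 covers chr15:5206661-5244187 on the minus strand, and 11676 bases of it overlap the gene Ttc33 on the other strand. The bases before the start sites of these 2 genes are shown because they were the genes with the clearest gap between genotypes, Ptges with the mutant above and Ptger4 with the mutant below. Each run holds the 250 bases before the RefSeq start (GRCm38.p6, minus strand, written 5′ to 3′), chr2:30903298-30903547 for Ptges and chr15:5244188-5244437 for Ptger4, and the capitals mark GC boxes (GGGCGG or its reverse complement CCGCCC).
Ptges: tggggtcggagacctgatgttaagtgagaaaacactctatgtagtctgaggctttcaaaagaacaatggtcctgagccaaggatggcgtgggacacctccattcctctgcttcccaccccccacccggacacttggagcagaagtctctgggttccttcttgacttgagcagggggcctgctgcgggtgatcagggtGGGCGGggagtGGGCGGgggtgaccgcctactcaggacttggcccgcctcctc
Ptger4: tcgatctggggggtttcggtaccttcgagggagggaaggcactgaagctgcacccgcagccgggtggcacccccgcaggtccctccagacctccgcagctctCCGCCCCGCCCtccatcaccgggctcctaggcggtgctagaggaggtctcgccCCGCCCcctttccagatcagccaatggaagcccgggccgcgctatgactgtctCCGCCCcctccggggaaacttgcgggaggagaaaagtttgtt
The Ptges window lies inside the annotated span of the gene, which has 4 transcripts, and starts farther upstream were not searched. The Ptges window held 2 GC boxes, and the Ptger4 window held 4, of which 2 shared 1 base. A GC box was in 32.7% of the 32851 mouse promoters of the same length. The core half-site of thyroid hormone receptors, AGGTCA or TGACCT on either strand, was in neither window and in 14.0% of all promoters, and of the 9 genes with a promoter sequence only the Ptgfr window held it. The TATA box letters TATAAA were in none of the 9 windows and in 12.4% of all promoters, and the cyclic AMP response core TGACGT was likewise in none and in 6.47%. The promoter of Ptgis is not shown or searched here. These matches are of letters only.

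The tissue was checked against markers of the cells it could hold, as the summed CPM of each list (counts scaled to the library's total and edgeR's TMM factor). Markers of simple epithelium (2213 to 5912 CPM in WT, 2207 to 5440 in Thra1PV/+) and of endometrial stroma (1530 to 4905 and 425 to 5118 CPM) were present in all 8 libraries, as the label endometrium implies. WT library 1 stood apart, with 13143 CPM of smooth muscle markers where WT libraries 2 to 4 had 573 to 1146 CPM and the mutants 146 to 687 CPM, so values that rest on it are given with and without it. Stroma markers were high in WT libraries 1 and 2 (4550 and 4905 CPM) and in Thra1PV/+ library 1 (5118 CPM), and lowest in Thra1PV/+ library 2 (425 CPM). Markers of stratified squamous epithelium, such as Krt5 and Trp63, summed to 17.4 to 97.5 CPM in WT and to 2482 to 4309 CPM in Thra1PV/+ libraries, and 7 of the 9 tested passed the test. Neutrophil markers ran from 7.94 to 127 CPM in WT and from 74.7 to 722 CPM in Thra1PV/+. In Thra1PV/+ library 2, S100a9 and S100a8 held 412 and 188 of the 722 CPM. Of 6 neutrophil markers tested, 5 had a positive and 1 (Ly6g, -0.24) a negative fold change, and 0 passed the test. The sum thus rests largely on S100a8 and S100a9, and which cells made them was not tested. In such bulk samples fewer cells of a type and less RNA per cell cannot be told apart.

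Ptges was the gene of the 10 whose genotypes were farthest apart against their spread. Its product, microsomal prostaglandin E synthase 1, makes PGE2 and is the inducible enzyme among the PGE synthases. Ptges was at 12.8, 9.06, 6.94 and 10.1 CPM in WT libraries 1 to 4 and at 70.7, 115, 96.2 and 71.7 CPM in Thra1PV/+ libraries 1 to 4. The lowest mutant value was thus well above the highest WT value, and within each genotype the highest library was only 1.84 times (WT) and 1.63 times (Thra1PV/+) the lowest. The means were 9.71 ± 2.43 and 88.5 ± 21.4 CPM (SD, n = 4 each), a ratio of 9.11, and the fitted log2 fold change was 3.19 with a standard error of 0.25. With each library left out in turn it stayed between 3.03 and 3.39, and in the blocked and rescaled fits it was of similar size.

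**Figure D1:**
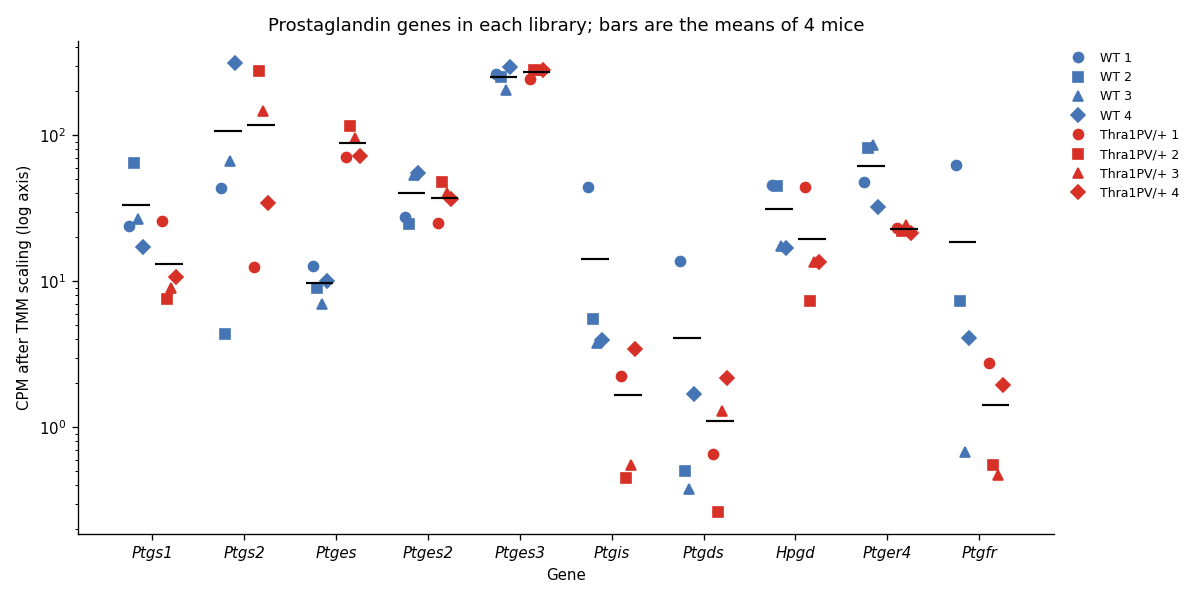
CPM after TMM scaling (log axis) of the 10 prostaglandin genes in each of the 8 libraries, WT in blue and Thra1PV/+ in red, with the library number as the symbol and the mean of 4 mice as a bar. Ptges lies at 6.94 to 12.8 CPM in WT and 70.7 to 115 CPM in Thra1PV/+, while Ptgs2 spreads from 4.33 to 312 CPM within WT alone.

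Of the 10 genes, 1 (Ptges) met the thresholds of the study (at least a 2-fold difference and an adjusted p of at most 0.1) by edgeR's quasi-likelihood test, beside 0.990% of the 18174 genes tested. By DESeq2, the tool the study used, 3 met them (Ptges, Ptger4 and Ptgfr), beside 3.58% of 22073 genes with an adjusted p. In 3 of the 10 the libraries of the genotypes did not overlap, Ptges with the mutant above and Ptgis and Ptger4 with the mutant below, beside 6.04% of all genes tested. Since the genes were selected on this contrast, nothing is read from these shares. Over all 10, the fitted log2 fold change was positive for 3 and negative for 7, with a median of -0.997, against -0.05 over all genes tested. This median leans on WT library 1. Without it Ptgis (-1.37), Ptgfr (-1.45), Hpgd (-0.39) and Ptgds (0.39) moved up. Ptgs1 (-1.40), Ptger4 (-1.50), Ptges2 (-0.21) and Ptgs2 (-0.08) moved down, and Ptges (3.39) and Ptges3 (0.17) stayed positive. Nothing is read from the median either.

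The squamous markers shared with Ptges the gap between genotypes, but not the full order within a genotype. Thra1PV/+ libraries 2 and 3 had the 2 highest Ptges values and also the 2 highest squamous sums (4007 and 4309 CPM), and Thra1PV/+ libraries 1 and 4 were lower in both (2482 and 3023 CPM). Within WT the order was not the same, since library 1 had the highest Ptges value (12.8 CPM) and the lowest squamous sum (17.4 CPM), and library 3 the lowest Ptges value (6.94 CPM) and the highest sum (97.5 CPM). The part of these cells in the level of Ptges was not tested. The 4 genes whose log2 CPM was most like that of Ptges over the 8 libraries were Nectin1 (Pearson's r 0.996), Mreg (0.992), Grhl1 (0.990) and Rab38 (0.990). Nectin1 encodes an adhesion protein of epithelial junctions, Grhl1 a transcription factor of the epidermis, and Mreg and Rab38 take part in the traffic of melanosomes and related organelles. All libraries share the genotype contrast, so these coefficients describe likeness over 8 points and carry no p.

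The cyclooxygenases did not share the gap between genotypes seen for Ptges. Ptgs2 encodes COX-2, the inducible enzyme that supplies PGH2 to Ptges. It was at 43.6, 4.33, 66.9 and 312 CPM in WT libraries 1 to 4 and at 12.5, 278, 146 and 34.2 CPM in Thra1PV/+ libraries 1 to 4. The genotypes overlapped over nearly their whole range, and the highest WT library held 72.1 times as much as the lowest. The means were 107 ± 139 CPM in WT and 118 ± 122 CPM in Thra1PV/+, and the log2 fold change was 0.14 with a standard error of 1.21. Its sign depended on single libraries, with -0.74 when Thra1PV/+ library 2 was left out and 1.62 when WT library 4 was left out. Within WT, Ptges did not have the order of Ptgs2: the library with 312 CPM of Ptgs2 had 10.1 CPM of Ptges, and the one with 4.33 CPM of Ptgs2 had 9.06 CPM. Within Thra1PV/+ the order was the same in both genes, library 2 highest, then 3, 4 and 1, although Ptgs2 spanned 22.1 times and Ptges 1.63 times. The quotient of Ptges over Ptgs2 (CPM) accordingly ranged from 0.0322 to 2.09 in WT and from 0.415 to 5.64 in Thra1PV/+, and the genotypes overlapped in it.

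Neutrophil and epithelial markers moved with part of the Ptgs2 pattern. The 3 libraries highest in Ptgs2 (WT library 4, Thra1PV/+ libraries 2 and 3) had 127, 722 and 295 CPM of neutrophil markers and 5912, 4650 and 5440 CPM of simple epithelium markers. The library lowest in Ptgs2, WT library 2, had the lowest neutrophil sum of all (7.94 CPM). WT library 3, the fourth in Ptgs2 with 66.9 CPM, had a high simple epithelium sum (5746 CPM) but few neutrophil markers (12.4 CPM). Thra1PV/+ library 1 went against the neutrophil order too, with 160 CPM of neutrophil markers and 12.5 CPM of Ptgs2, and it had the lowest simple epithelium sum (2207 CPM). Their part in the level of Ptgs2 was not tested. The genes most like Ptgs2 over the 8 libraries were Slc2a6 (r 0.980), a sugar transporter gene, the predicted genes Gm28707 (0.976) and Gm7609 (0.976), and the integrin subunit gene Itgav (0.975).

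Ptgs1 encodes COX-1, the cyclooxygenase that most tissues make constantly. It was at 24.0, 64.4, 26.8 and 17.1 CPM in WT libraries 1 to 4 and at 25.8, 7.53, 8.97 and 10.7 CPM in Thra1PV/+ libraries 1 to 4. Thra1PV/+ library 1 lay inside the WT range, and the other 3 mutant libraries lay below every WT library. The means were 33.1 ± 21.3 and 13.2 ± 8.45 CPM, and the log2 fold change was -1.32 with a standard error of 0.53. It was -1.82 without Thra1PV/+ library 1, the mutant library with the most stroma markers, and -0.75 without WT library 2.

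The other 2 PGE synthases differed little between genotypes. Ptges2 encodes a Golgi-anchored PGE synthase and Ptges3 the abundant cytosolic one, which is better known as the Hsp90 co-chaperone p23. Ptges2 was at 27.4, 24.6, 53.2 and 54.8 CPM in WT and at 25, 47.6, 40.0 and 36.4 CPM in Thra1PV/+ libraries 1 to 4, and the log2 fold change was -0.10 with a standard error of 0.32. Ptges3 was at 262, 252, 205 and 291 CPM in WT and at 243, 282, 281 and 279 CPM in Thra1PV/+, and the log2 fold change was 0.10 with a standard error of 0.14. Ptges3 varied least of the 10 genes over all 8 libraries, with the highest value 1.42 times the lowest. A pseudogene and a Ptges3-like gene share sequence with it, so reads may have been split among them.

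On a scale per transcript length, Ptges was a small part of the PGE synthase transcripts in both genotypes beside the abundant Ptges3, but by different margins. In the deposited TPM values it made up 1.98%, 1.5%, 1.5% and 1.63% of the summed level of the 3 PGE synthase genes in WT libraries 1 to 4. In Thra1PV/+ libraries 1 to 4 it made up 8.61%, 13.0%, 11.5% and 8.99%. Every mutant library was above every WT library, and Ptges3 held most of the sum in all of them. The share contains Ptges, so it repeats the contrast by which Ptges was chosen. Beside Ptges2 alone, Ptges was far lower in WT. In Thra1PV/+ libraries 1 to 4 it was near it, at 25.3, 38.9, 33.2 and 25.6 TPM against 19.4, 35.8, 31.8 and 27.2 TPM of Ptges2.

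**Figure D2:**
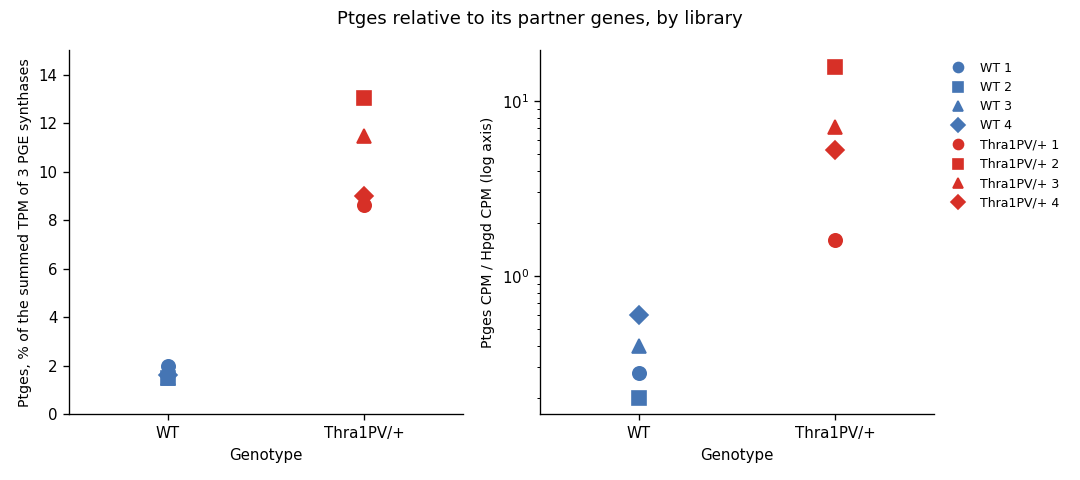
Left, Ptges as a percentage of the summed TPM of Ptges, Ptges2 and Ptges3 in each library. Right, the quotient of Ptges CPM over Hpgd CPM on a log axis. Points are single libraries by genotype. The share is 1.5% to 1.98% in WT and 8.61% to 13.0% in Thra1PV/+, and the quotient is 0.202 to 0.598 and 1.60 to 15.7. Both contain Ptges, so both repeat the contrast by which it was chosen.

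The synthases of PGI2 and PGD2 rested on WT library 1. Ptgis encodes prostacyclin synthase, which makes PGI2, a lipid that relaxes smooth muscle. It was at 43.9, 5.56, 3.78 and 3.96 CPM in WT libraries 1 to 4 and at 2.24, 0.446, 0.552 and 3.43 CPM in Thra1PV/+ libraries 1 to 4. All mutant libraries were below all WT libraries, but the gap between the nearest pair, 3.43 and 3.78 CPM, was narrow. The log2 fold change was -3.10 with a standard error of 1.07, and without WT library 1 it was -1.37 with a standard error of 0.71. The smooth muscle sums had a similar order, since Thra1PV/+ libraries 2 and 3, lowest in Ptgis, were also lowest in these markers (146 and 178 CPM) and WT library 1 was highest in both. All 8 smooth muscle markers had a negative fold change and 0 of them passed the test. Ptgis overlaps 2 genes on the other strand.

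Ptgds encodes the lipocalin-type PGD2 synthase. It was at 13.7, 0.506, 0.378 and 1.70 CPM in WT libraries 1 to 4 and at 0.661, 0.264, 1.29 and 2.19 CPM in Thra1PV/+ libraries 1 to 4. Apart from WT library 1 the genotypes covered the same range. The log2 fold change was -1.88 with a standard error of 1.19 with all libraries and 0.39 with a standard error of 0.82 without WT library 1, so 1 library set its sign.

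**Figure D3:**
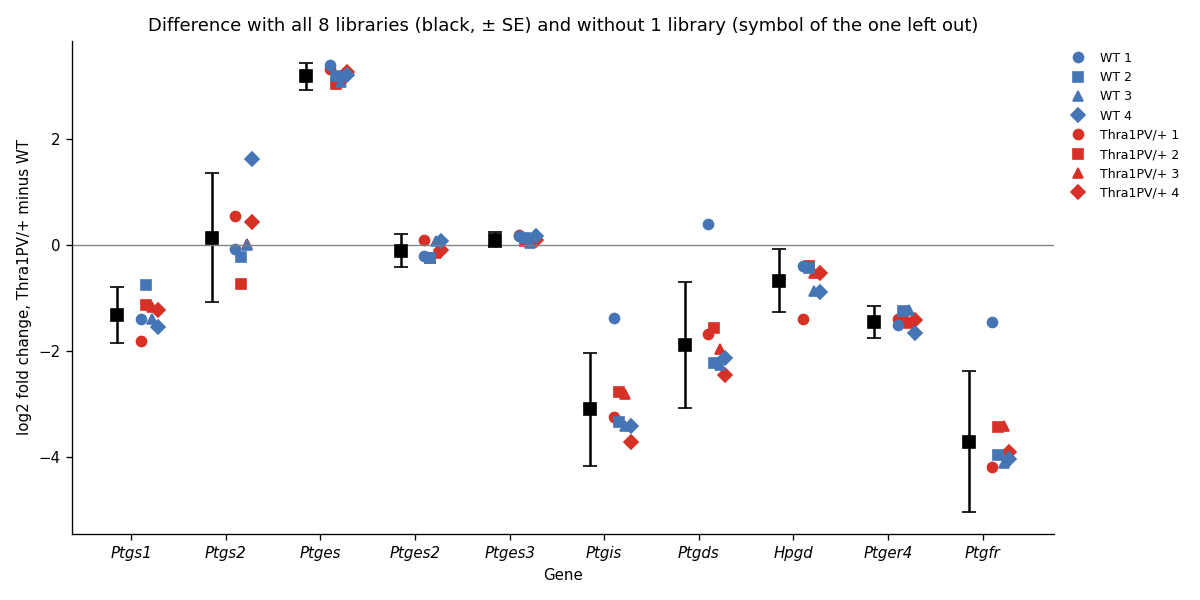
Fitted log2 fold change (Thra1PV/+ minus WT) of the 10 genes with all 8 libraries (black squares, ± SE) and with 1 library left out (coloured symbols, named after the library that was left out). Ptges stays between 3.03 and 3.39, while Ptgis, Ptgds and Ptgfr move to -1.37, 0.39 and -1.45 without WT library 1.

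Hpgd encodes 15-hydroxyprostaglandin dehydrogenase, the enzyme that starts the breakdown of PGE2 and PGF2α. It was at 45.8, 45.0, 17.4 and 16.8 CPM in WT libraries 1 to 4 and at 44.1, 7.37, 13.5 and 13.6 CPM in Thra1PV/+ libraries 1 to 4. Each genotype thus had libraries near 45 CPM and libraries under 20 CPM, and the genotypes overlapped. The means were 31.3 ± 16.3 and 19.6 ± 16.6 CPM, and the log2 fold change was -0.67 with a standard error of 0.60. It was -1.40 without Thra1PV/+ library 1 and -0.39 without WT library 1.

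The level of Hpgd followed the stroma markers in both genotypes. The 3 libraries near 45 CPM were the 3 with the highest stroma sums (4550, 4905 and 5118 CPM), and Thra1PV/+ library 2 was lowest in both (7.37 and 425 CPM). The remaining 4 libraries had 13.5 to 17.4 CPM of Hpgd and 954 to 1694 CPM of stroma markers. Blood endothelium markers were highest in the same 3 libraries (303, 224 and 258 CPM) and lowest in Thra1PV/+ library 2 (65.2 CPM). All 8 stroma markers had a negative fold change and 0 passed the test, and their part in the level of Hpgd was not tested. The genes most like Hpgd over the 8 libraries were Pard3b (r 0.997), a cell polarity gene, Cd248 (0.996), a surface protein of fibroblasts and pericytes, the kinase gene Fyn (0.993) and Gypc (0.993), which encodes a membrane glycoprotein.

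The quotient of Ptges over Hpgd sets a synthesising against a degrading enzyme within a library. It was 0.279, 0.202, 0.398 and 0.598 in WT libraries 1 to 4 and 1.60, 15.7, 7.12 and 5.28 in Thra1PV/+ libraries 1 to 4. Every mutant value was above every WT value, and the mutant value nearest to WT came from library 1, the one with high Hpgd. Both genes enter it, so it repeats the contrast by which Ptges was chosen.

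**Figure D4:**
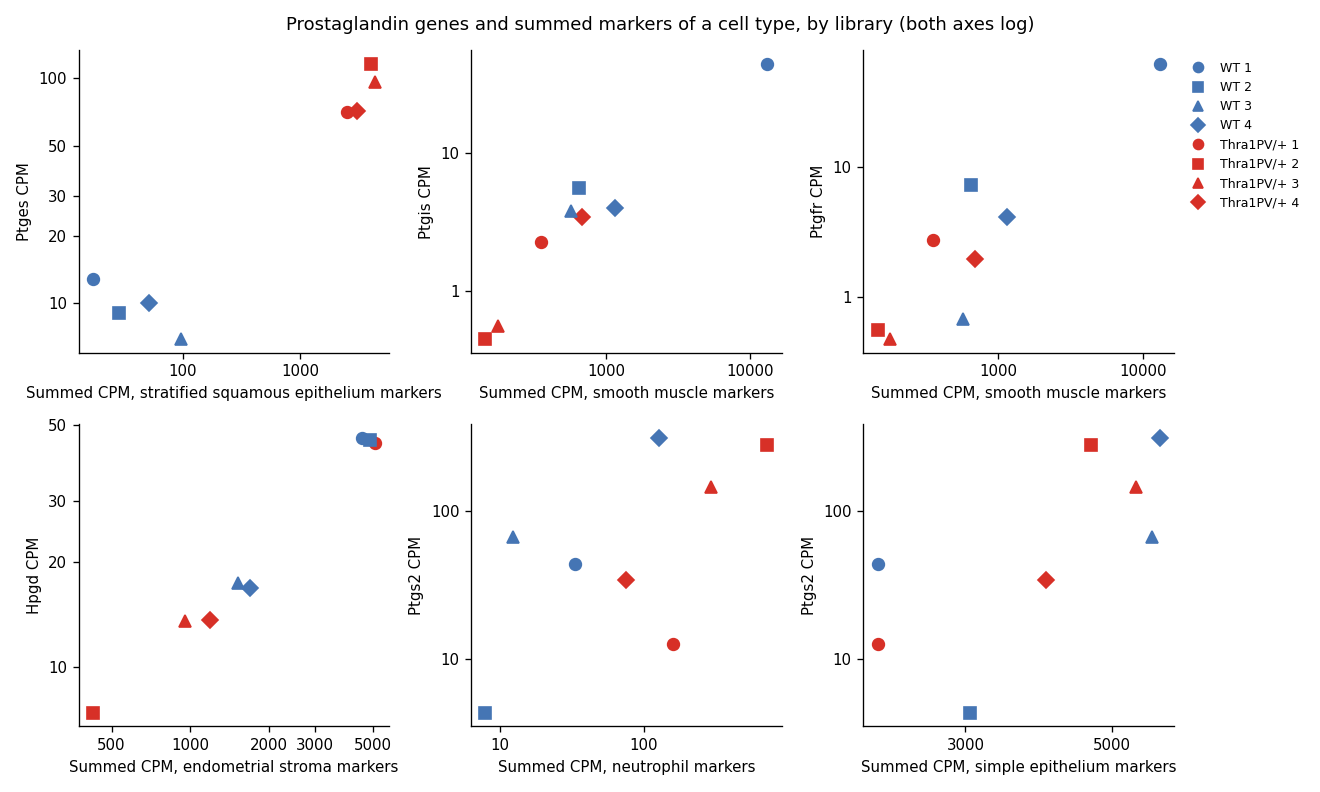
Level of a prostaglandin gene (CPM) against the summed CPM of the markers of 1 cell type in each of the 8 libraries, both axes log, WT in blue and Thra1PV/+ in red. Hpgd and the stroma sum are high and low in the same libraries of both genotypes, Ptgis and Ptgfr are highest in WT library 1 with its 13143 CPM of smooth muscle markers, and Ptges and the squamous sum separate the genotypes but have no common order within WT.

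Ptger4 encodes EP4, a receptor of PGE2 that raises cyclic AMP. It was at 47.9, 81.7, 86.0 and 32.0 CPM in WT libraries 1 to 4 and at 23.2, 22.2, 24.2 and 21.5 CPM in Thra1PV/+ libraries 1 to 4. All mutant libraries were below all WT libraries, and the mutant libraries lay within 1.12 times of each other while the WT libraries spanned 2.68 times. The means were 61.9 ± 26.2 and 22.8 ± 1.14 CPM, which is 2.72 times lower in the mutant, and the log2 fold change was -1.44 with a standard error of 0.30. With single libraries left out it stayed between -1.66 and -1.23, and it was -1.50 without WT library 1. The overlapping gene Ttc33 on the other strand had a log2 fold change of -0.36, and the library kit keeps the strand.

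Ptgfr encodes FP, the receptor through which PGF2α contracts smooth muscle and ends the life of the corpus luteum. It was at 62.8, 7.31, 0.676 and 4.10 CPM in WT libraries 1 to 4 and at 2.74, 0.548, 0.470 and 1.96 CPM in Thra1PV/+ libraries 1 to 4. WT library 3 lay among the mutant libraries, so the genotypes overlapped. The log2 fold change was -3.71 with a standard error of 1.33, and -1.45 with a standard error of 0.88 without WT library 1, the library rich in smooth muscle markers. The part of smooth muscle in it was not tested.

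Levels of different genes were ordered by the median TPM of a genotype. In WT the order was Ptges3 (202 TPM), Ptger4 (29.5), Ptges2 (28.4), Hpgd (26.3), Ptgs2 (16.2), Ptgs1 (12.3), Ptges (3.85), Ptgis (3.17), Ptgds (2.04) and Ptgfr (1.59). In Thra1PV/+ it was Ptges3 (228 TPM), Ptges2 (29.5), Ptges (29.4), Ptgs2 (28.1), Hpgd (12.3), Ptger4 (10.4), Ptgs1 (4.48), Ptgds (1.62), Ptgis (0.767) and Ptgfr (0.236). Ptges3 was above the range of every other gene in both genotypes, and of the other neighbours in the order only Ptgs1 and Ptges in WT did not overlap. Ptges and Ptger4 traded places without overlap: Ptges at 3.02 to 4.41 TPM was below Ptger4 at 14.9 to 40.4 TPM in WT, and Ptges at 25.3 to 38.9 TPM was above Ptger4 at 10.2 to 11.1 TPM in Thra1PV/+.

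The rest of the pathway was taken from lists of 37 genes by function, of which 33 had enough counts to test. With edgeR's quasi-likelihood test adjusted over all genes, 1 of the 33 passed, Pla2g2f, and 32 did not. At an unadjusted p under 0.05 there were 11 of the 33, beside 9.77% of all genes tested. The lists were chosen with earlier results of these data known, so nothing is read from this share. Of these 11, 5 had a positive and 6 a negative fold change. The median log2 fold change of the 33 was -0.09 against -0.05 over all genes tested. In 3 of the 33 the genotypes did not overlap, all with the mutant above (Pla2g2f, Pla2g4c and Akr1c18), a share near the 6.04% of all genes tested. The filter on low counts asks for about 10 counts in as many libraries as a genotype has. Pla2g2f, Pla2g4f, Akr1c18 and Akr1b7 did not reach this in WT alone, and Ptger3, Tbxa2r and Ptgir did not in the mutant alone. They could be tested only with the help of the genotype where they were higher. Pla2g10 fell short in WT alone (counts 10, 1075, 9 and 4), and Pla2g3 in the mutant alone (counts 28, 18, 9 and 30). Nothing is read from the direction of any of these genes. Pla2g4d, Pla2g4e, Pla2g2a and Ptgdr had too few counts to test.

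Among 14 tested genes of phospholipases and arachidonate supply, 7 had a positive and 7 a negative fold change. Pla2g2f, which encodes a secreted phospholipase known from epidermis, had 0 counts in all 4 WT libraries and 25, 31, 40 and 59 counts in Thra1PV/+ libraries 1 to 4. It was at least 12.6-fold higher in the mutant, set against a floor of 3 counts in each WT library (adjusted p = 0.0202 with edgeR). It passed the filter on low counts through the mutant libraries alone, so it could be tested only because they were higher, and nothing about the pathway is read from this call. The adjusted p was 0.102 without Thra1PV/+ library 3, which takes it just past the threshold, and ran from 2.86e-09 to 0.277 over all alternatives. Its counts were low in every library, and it has near relatives in a gene cluster of secreted phospholipases. Pla2g4c, a cytosolic phospholipase gene, was at 0.630 to 1.03 CPM in WT and 1.04 to 1.75 CPM in Thra1PV/+ (log2 fold change 0.78, SE 0.31, edgeR adjusted p = 0.470). Pla2g4f, another one, had a log2 fold change of 1.90 (SE 0.70, edgeR adjusted p = 0.422). Its WT counts were 15, 14, 5 and 6, so it needed the mutant libraries to pass the filter. Acsl4, whose enzyme ties arachidonic acid to coenzyme A and had the highest mean level of its list, was at 48.8, 159, 133 and 130 CPM in WT libraries 1 to 4 and at 52.8, 68.1, 79.6 and 70.1 CPM in the mutants. WT library 1 was the lowest of all 8 for Acsl4 and the other 3 WT libraries the highest. The log2 fold change was -0.80 (SE 0.33, edgeR adjusted p = 0.490), and without WT library 1 it was -1.01 with an edgeR adjusted p of 0.0589, a call, within a range of 0.0589 to 0.782 over all alternatives.

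Among 7 other terminal synthases, 5 had a positive and 2 a negative fold change, and 0 passed the test with edgeR. At an unadjusted p under 0.05 there were 2, beside 9.77% of all genes tested. Akr1c18 encodes an aldo-keto reductase that inactivates progesterone and can make PGF2α. It was at 0, 0.253, 1.79 and 0.230 CPM in WT libraries 1 to 4 and at 7.49, 18.4, 15.4 and 6.06 CPM in Thra1PV/+ libraries 1 to 4. The genotypes did not overlap, and the log2 fold change was 4.38 (SE 1.20, edgeR adjusted p = 0.249, and 0.00180 with DESeq2, within a range of 0.00180 to 0.560 over all alternatives). The WT counts of Akr1c18 were 0, 14, 90 and 11, so it needed the mutant libraries to pass the filter on low counts. Nothing about the pathway is read from this gap. Akr1b7, an aldose reductase-like gene with PGF synthase activity, was at 0.108 to 0.324 CPM in WT and 0.245 to 0.954 CPM in Thra1PV/+ (log2 fold change 1.70, SE 0.56, edgeR adjusted p = 0.360). Akr1b7 too needed the mutant libraries to pass the filter (WT counts 17, 6, 6 and 6). Akr1b3, the aldose reductase gene and the most abundant of this list, had a log2 fold change of 0.01 with a standard error of 0.25, and its sign changed with the setting. The Akr1b and Akr1c families hold related genes, so reads may have been split among them, which was not tested.

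Transport and further breakdown showed small differences. Of 5 genes, 2 had a positive and 3 a negative fold change, and 0 passed the test with edgeR. An unadjusted p under 0.05 was found for 2, beside 9.77% of all genes tested. These were Ptgr2 (log2 fold change -0.42, SE 0.17, edgeR adjusted p = 0.484) and Zadh2 (-0.46, SE 0.19, edgeR adjusted p = 0.490), whose enzymes reduce the keto products that Hpgd leaves.

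Of 7 other prostanoid receptor genes tested, 1 had a positive and 6 a negative fold change, and 0 passed the test with edgeR. Ptger3, Tbxa2r and Ptgir passed the filter on low counts only with the help of the WT libraries. WT library 1 was the highest of all libraries for Ptger1, Ptger3, Ptgir, Tbxa2r and Ptgfrn. Nothing is therefore read from this split of signs. At an unadjusted p under 0.05 there were 3, beside 9.77% of all genes tested. Ptger3 encodes EP3, a PGE2 receptor that lowers cyclic AMP and is known from smooth muscle. It was at 256, 10.9, 1.87 and 5.53 CPM in WT libraries 1 to 4 and at 3.45, 0.0406, 0.490 and 1.05 CPM in the mutants, and WT library 1 carried most of the WT mean. The log2 fold change was -5.76 (SE 1.87, edgeR adjusted p = 0.352), and -2.24 without WT library 1. Ptger2 encodes EP2, which raises cyclic AMP as Ptger4 does. It was at 2.23, 20.6, 5.13 and 4.06 CPM in WT and at 3.58, 2.35, 1.29 and 1.14 CPM in Thra1PV/+ libraries 1 to 4, and WT library 2 was the highest. Its log2 fold change was -1.94 (SE 0.74, edgeR adjusted p = 0.438), and -0.83 without WT library 2. Tbxa2r, the thromboxane receptor gene, had a log2 fold change of -2.35 (SE 0.82, edgeR adjusted p = 0.388, range 0.0726 to 0.769 over all alternatives), and -1.32 without WT library 1. Ptgfrn, which encodes a partner protein of the PGF2α receptor, was the most abundant of the list and had a log2 fold change of -0.09 with a standard error of 0.23, whose sign changed when only library size was used for scaling.

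**Figure D5:**
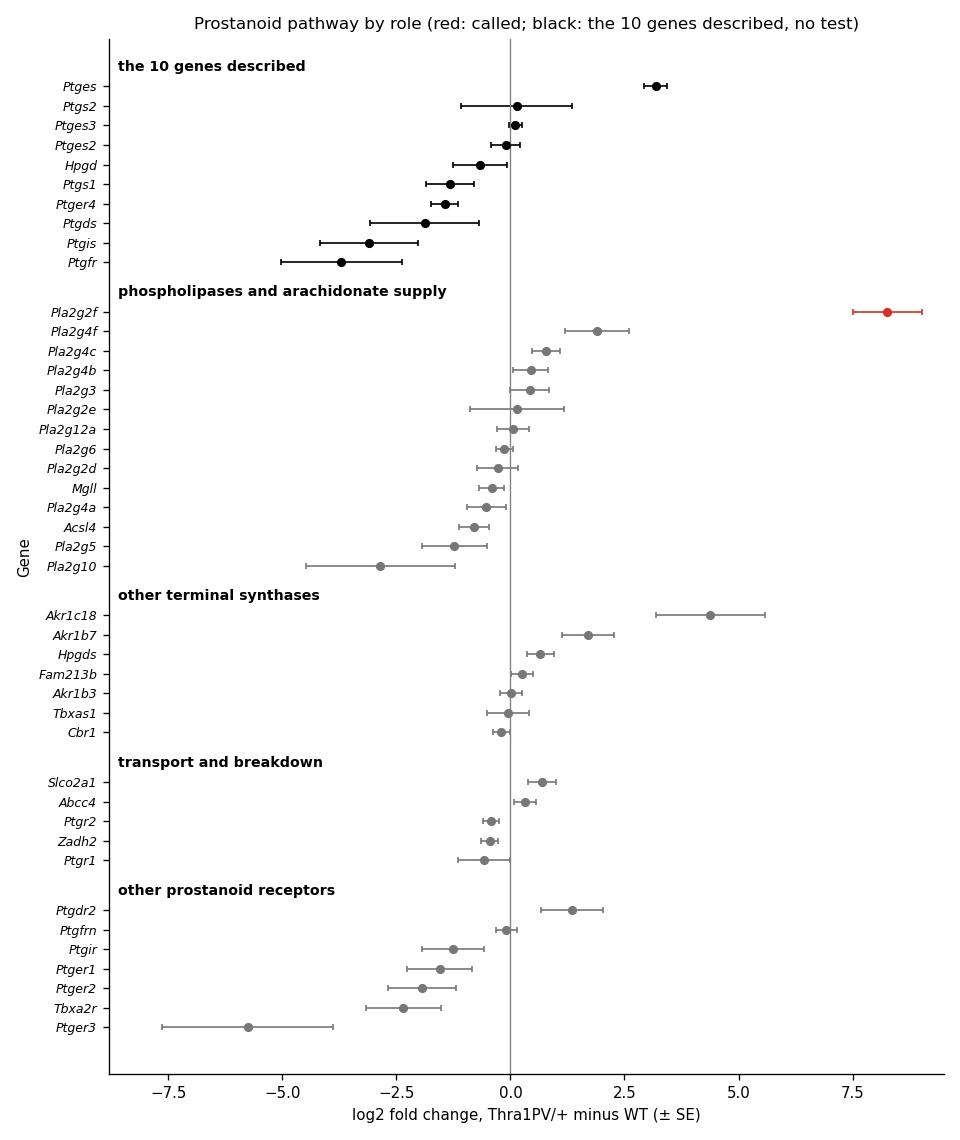
Fitted log2 fold change (Thra1PV/+ minus WT, ± SE) of the 10 prostaglandin genes (black, no test marked) and of 33 other tested pathway genes by role (grey, and red where the test was passed). Pla2g2f is the red point, and its position depends on the prior count because WT had 0 counts. The other receptor genes apart from Ptgdr2 lie below 0. Of these, Ptger3, Tbxa2r and Ptgir passed the filter on low counts only with the WT libraries, so nothing is read from this.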

How the data were processed

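RNA of 8 laser-captured endometrium samples was sequenced by the authors as stranded paired-end libraries, trimmed with Trimmomatic and counted with Salmon (versions not given in the sources used here) on mm10. The deposited table of estimated counts per gene was rounded to whole numbers and fitted with edgeR 4.0.16 (R 4.3.3): filterByExpr with a minimum count of 10, TMM scaling, the quasi-likelihood test with genotype as the only term, and Benjamini-Hochberg adjustment over 18174 genes. Log2 CPM used a prior count of 2. The deposited TPM values had been quantile normalized by the authors, and were used to compare genes with each other and, in limma 3.58.1, as an alternative with pseudocounts of 1 and 0.1. DESeq2 1.42.0, limma voom, other scalings, filters, a block for the replicate number and leaving out each library were further alternatives. The code was tested on simulated data.

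The members and the gene lists were chosen with earlier results of these data known. Named in the text were all 10 members, the other pathway genes that were called or had an unadjusted p under 0.05, the most abundant gene of each list, and the 4 genes most like Ptges, Ptgs2 and Hpgd by Pearson's r of log2 CPM. Symbols were matched for 52220 of 52325 identifiers. Positions and overlaps came from GENCODE M21, and promoters from RefSeq (9 of 10 members matched). The symbols Prxl2b and Ptgr3 were found under Fam213b and Zadh2. A further TPM column, headed as another WT sample and holding negative values, was not used (1 column). Replicates are separate mice, so p-values measure the spread between mice and their captures.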

Additional observations from a re-analysis of the deposited data

Results flagged for a closer look

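In groups of 4 libraries, 1 library can lie so far from the other 3 that its gap to the nearest takes up most of the range (Dixon's ratio, set against its 95% critical value). This was looked at in 46 groups of named genes and genotypes, and 3 were past the value where chance gives 2.3, since about 1 in 20 groups is past it by chance. Ptges3 in Thra1PV/+ library 1 was low, with a ratio of 0.931, but the values themselves were close together (243 CPM against 279 to 282 CPM). Ptgis in WT library 1 was high, with a ratio of 0.843 (43.9 CPM against 3.78 to 5.56 CPM). Akr1b7 in WT library 1 was high, with a ratio of 0.877 (0.324 CPM against 0.108 to 0.126 CPM).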

How the results depend on the processing

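Ptges kept its direction in all 18 alternatives (log2 fold change 2.72 to 3.39), as did Ptger4 (-1.66 to -1.10), Ptgs1 (-1.82 to -0.75), Hpgd (-1.40 to -0.39), Ptgis (-3.72 to -1.37), Ptgfr (-4.19 to -1.33) and Ptges3 (0.03 to 0.25), while Ptgs2, Ptges2 and Ptgds each took both signs. The lowest value for Ptges and the highest for Ptgfr came from TPM with a pseudocount of 1, which shrinks low values by construction. The number of genes called over the whole table was 180 (93.3% higher in the mutant), 791 with DESeq2 (71.8% higher), 311 with limma voom (81.4% higher) and 81 where each library had to hold at least 10 counts, which removes genes absent from a genotype; without 1 library it was 81 (without Thra1PV/+ library 3) to 167, with 116 without Thra1PV/+ library 2 and 114 without WT library 4. Of the 10 members, Ptges was called in all 18 alternatives, with Ptger4 and Ptgfr also called by DESeq2 and Ptger4 without WT library 4. Of all genes, 0.990% were called in the main fit and 3.58% by DESeq2. The members were chosen on this contrast, so nothing is read from these calls. The number of other pathway genes called was 1, with 3 from DESeq2 (Pla2g2f, Akr1c18 and Tbxa2r), 2 from limma voom and 2 from TPM with a pseudocount of 0.1 (Pla2g2f and Akr1c18 in both), 0 with the filter of 10 counts in every library, where Pla2g2f is not tested, and 0 to 2 without 1 library (0 without Thra1PV/+ library 3; 2 without WT library 1 or WT library 3). With TPM and a pseudocount of 1 the 1 gene called was Akr1c18 and not Pla2g2f. Where not said otherwise, the cause was not tested.

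The log2 fold change of Akr1b3, 0.01, was -0.18 with limma voom, -0.03 without Thra1PV/+ library 2, -0.04 without WT library 1, -0.10 without WT library 3 (-0.10 to 0.31 over the single libraries left out), -0.0147 with TPM and a pseudocount of 1, and -0.0139 with 0.1. That of Ptgfrn, -0.09, was 0.0047 with library size only, 0.01 without Thra1PV/+ library 4 and 0.056 without WT library 1 (-0.24 to 0.056 over the single libraries left out). No scaling moved the median of all genes by over 0.1.

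The labels give both genotypes the numbers 1 to 4, but same-numbered libraries did not deviate together. Their correlations were -0.44 to 0.34, over 0.1 in 2 of 4 pairs, and 1 of 4 mutant libraries correlated best with its own number. No pairing by number showed in these values. The captures also differed in their mix of tissue, so a pairing of mice could be present and not show. With the replicate number as a block, 82 genes and 0 other pathway genes were called, and Pla2g2f had an adjusted p of 0.277. Ptges had a log2 fold change of 3.19 and Ptgs2 of -0.02 in that fit. With 4 mice a genotype, and levels under 1 CPM for Ptgds and Ptgfr in some libraries, small differences in these genes could not be resolved.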
